A study of Homo sapiens with 6 samples.

Results

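The genes described here are the DNA mismatch repair genes MSH3, MSH6, MLH3, PMS1, PMS2 and EXO1 and the proofreading polymerase genes POLE and POLD1, which were chosen by name. All 8 were found by symbol among the 58884 Ensembl genes of the count table, and all 8 passed the filter on low counts. RNA was sequenced from DLD1 cells, a colorectal adenocarcinoma line, in 3 parental libraries and in 3 libraries of p85β KR-AA cells, which carry the K477A and R478A changes of the PI3K subunit p85β (gene PIK3R2) at the endogenous locus, on both alleles. Both conditions have the PIK3CA helical domain mutation of the line, and no drug treatment is given in the labels. The changes were made to disrupt a nuclear localization signal, and the comparison asked which transcripts differ when p85β is kept out of the nucleus. More than 1 clone was made by the study, and the library labels neither name the clone nor say whether replicates came from separate cultures, so that p-values measure the spread between these libraries.

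Mismatch repair removes the base mispairs and small loops that escape proofreading. MutS heterodimers recognize the error, with MSH6 serving base mispairs and small loops and MSH3 serving larger loops. MutL heterodimers with PMS2, PMS1 or MLH3 follow, the exonuclease EXO1 removes the strand that carries the error, and polymerase δ fills the gap. POLD1 and POLE are the catalytic subunits of polymerases δ and ε, which copy the lagging and the leading strand and proofread as they copy. DLD1 is known as a mismatch repair-deficient line because of inactivating changes in MSH6. Counts per gene do not show whether a transcript carries such a change.

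Total counts were between 20301396 and 26712816 per library. One count was worth 0.0273 to 0.0364 CPM (counts scaled to the TMM-adjusted library size) in the p85β KR-AA libraries and 0.0617 to 0.0728 CPM in parental libraries. The conditions differed across the transcriptome, with 74.3% of 16059 tested genes passing an adjusted p under 0.01 (edgeR quasi-likelihood test), 41.6% higher and 32.7% lower in p85β KR-AA cells. With scaling by library totals alone, the median log2 fold change of all tested genes was 0.92 higher, and 76.3% of the genes past the test were higher rather than 56.0%. That median was 0.11 lower with DESeq2. "Rose" and "fell" are used below for genes past that p. Over 15902 genes, which are not independent, the log2 fold change had a Spearman correlation of -0.578 with GC content and of 0.454 with length. Of 12 colorectal epithelium markers, 8 fell and 2 rose, and their summed level was 57230 to 79260 CPM in parental libraries and 8813 to 10310 CPM in those of p85β KR-AA cells. The keratins KRT8, KRT18 and KRT19 made up most of that sum, while the cadherins CDH1 (log2 fold change 1.82) and CDH17 (2.104) were the markers that rose. Of 16 mesenchymal markers, 10 rose and 1 fell, with sums of 138.3 to 160.6 and 6540 to 7482 CPM, mostly FN1 and VIM in p85β KR-AA cells and S100A4 in parental cells, while THY1, PDGFRA and COL1A2 had at most 3 counts in each library of both conditions. The part of these differences in the results below was not tested. In bulk RNA, fewer cells of a kind and less RNA per cell cannot be told apart.

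The sequences before the starts of these genes are described by their GC content and by 3 kinds of motif. The windows below are the 250 bases before the first RefSeq start listed for MSH6 and EXO1, which rose, and for POLD1, which fell. For POLE and PMS2 they are the whole stretch between the member's start and that of a neighbor transcribed the other way, since each pair of genes shares it. Sequences are from RefSeq on GRCh38.p14, written 5′ to 3′ on the member's strand. Capitals mark 3 kinds of motif on either strand, the GC box (GGGCGG), the CCAAT box (CCAAT) and an E2F site (TTTCCCGC, TTTGGCGC, TTTCGCGC or TTTGCCGC). Where motifs overlap, the capitals run together. The stretches are MSH6 on the plus strand of chr2:47782895-47783144, EXO1 on the plus strand of chr1:241847954-241848203, POLD1 on the plus strand of chr19:50384073-50384322, POLE to PXMP2 on the minus strand of chr12:132687343-132687586 and PMS2 to AIMP2 on the minus strand of chr7:6009107-6009271.
MSH6: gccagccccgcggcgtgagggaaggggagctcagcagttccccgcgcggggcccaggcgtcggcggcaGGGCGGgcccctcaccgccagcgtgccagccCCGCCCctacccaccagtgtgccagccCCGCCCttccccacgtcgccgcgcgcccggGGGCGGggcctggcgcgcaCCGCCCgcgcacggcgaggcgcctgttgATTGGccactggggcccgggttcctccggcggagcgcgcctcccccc
EXO1: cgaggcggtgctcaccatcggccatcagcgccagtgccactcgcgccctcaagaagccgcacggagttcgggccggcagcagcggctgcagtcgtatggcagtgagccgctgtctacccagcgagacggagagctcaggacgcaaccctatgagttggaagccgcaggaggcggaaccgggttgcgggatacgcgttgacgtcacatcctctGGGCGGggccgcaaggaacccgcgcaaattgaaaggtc
POLD1: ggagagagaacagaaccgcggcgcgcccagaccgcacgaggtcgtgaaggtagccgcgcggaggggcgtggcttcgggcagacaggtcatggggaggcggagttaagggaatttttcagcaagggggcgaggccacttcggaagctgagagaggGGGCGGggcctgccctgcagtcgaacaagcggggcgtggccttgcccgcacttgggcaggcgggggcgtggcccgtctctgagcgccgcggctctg
POLE to PXMP2: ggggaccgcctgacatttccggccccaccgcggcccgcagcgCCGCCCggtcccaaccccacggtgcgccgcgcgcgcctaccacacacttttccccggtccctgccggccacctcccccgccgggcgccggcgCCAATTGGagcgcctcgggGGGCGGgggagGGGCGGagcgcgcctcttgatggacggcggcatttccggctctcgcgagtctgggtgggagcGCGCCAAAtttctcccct
PMS2 to AIMP2: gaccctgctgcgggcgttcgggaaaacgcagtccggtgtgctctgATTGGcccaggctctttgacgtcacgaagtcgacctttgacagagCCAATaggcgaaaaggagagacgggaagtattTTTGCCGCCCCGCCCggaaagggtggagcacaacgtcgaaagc
The MSH6 window holds 5 GC boxes and 1 CCAAT box, and its GC content of 81.2% is above that of 97.7% of 35116 RefSeq windows of this length. EXO1 and POLD1, which moved in opposite directions, each hold 1 GC box and none of the other motifs, with GC contents of 65.6% and 69.6%. The stretch between POLE and PXMP2 holds 3 GC boxes, 1 E2F site and a CCAAT box whose letters read as that motif on both strands. The stretch between PMS2 and AIMP2 holds 2 GC boxes, 2 CCAAT boxes and 1 E2F site. Among the members' windows of 250 bases that are not shown, that of MSH3 holds 4 GC boxes and 2 E2F sites, that of PMS1 1 GC box and 2 CCAAT boxes, and that of MLH3 none of the motifs. All members but MLH3 thus hold a GC box. Of all RefSeq windows, 42.6% hold a GC box, 32.0% a CCAAT box and 2.79% an E2F site.

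Of the 8 members, 6 rose in p85β KR-AA cells, 1 fell and 1 did not pass the test, where 41.6% of all tested genes rose and 32.7% fell. The genes that rose were those of mismatch recognition and excision, MSH6, MSH3, PMS2, PMS1, MLH3 and EXO1. POLD1 fell 6.18-fold, and POLE differed by less than the spread between libraries. The CPM ranges of the conditions were apart for 7 of the 8 members, as they were for 83.5% of all tested genes. With a fold change of at least 3 as a further condition, MSH6, MSH3 and MLH3 rose and POLD1 fell, against 28.6% and 17.6% of all tested genes in these directions. The median log2 fold change was 1.41 over the members and 0.32 over all tested genes. With offsets for transcript length and GC content in the fit, only MLH3 of the 8 members still rose, MSH6 and POLE passed the test as lower, and POLD1 remained lower. In that fit 29.1% of genes were higher and 34.7% lower.

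**Figure D1:**
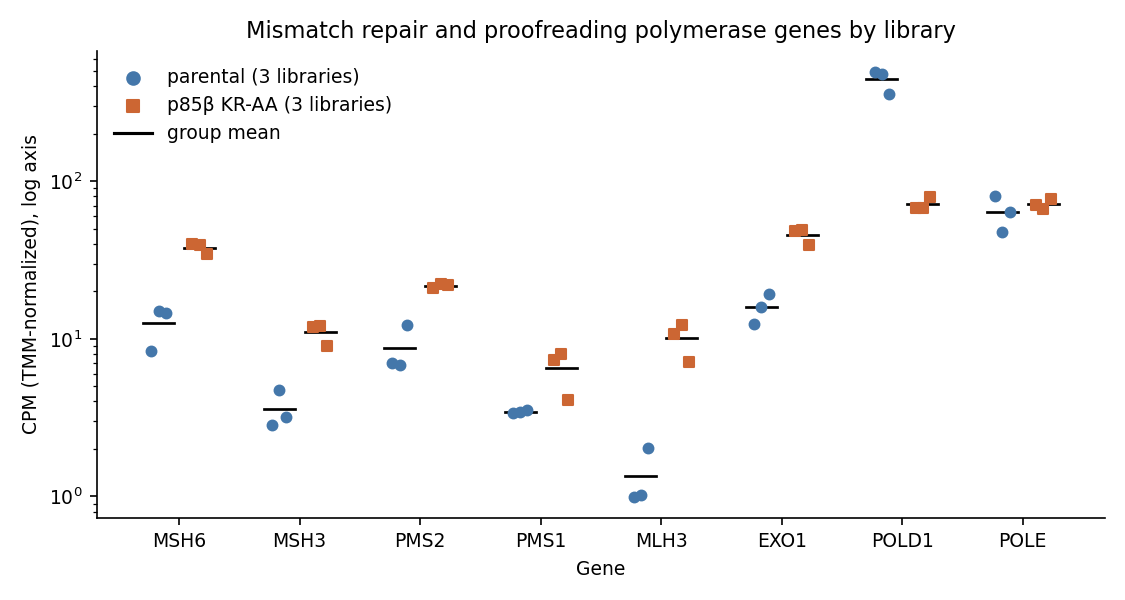
Level of each gene in CPM (log axis) in the 3 parental (circles) and 3 p85β KR-AA (squares) libraries, with bars at the group means. The conditions overlap for POLE alone among these genes, and POLD1 lies between 358.5 and 493.0 CPM in parental libraries and between 67.2 and 79.8 CPM in those of p85β KR-AA cells.

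MSH6 (ENSG00000116062, plus strand of chromosome 2, 47922669 to 48037202 of GRCh37) is the mispair-binding subunit of MutSα. It had estimated counts of 125.4, 206.2 and 236.4 in parental libraries and 1460.3, 1127.4 and 949.2 in those of p85β KR-AA cells. Its level was 12.6 ± 3.75 CPM in parental cells against 37.9 ± 2.87 CPM (SD, n = 3 each). Every p85β KR-AA library lay above every parental library, and parental replicate 1 was the lowest. The rise of 1.59 on the log2 scale (standard error, SE, 0.21, adjusted p = 1.50e-05, edgeR) was at the 3-fold threshold. MSH6 has the lowest GC content of the members but that of PMS1, 40.2%, and a length of 7476 bases. With length and GC offsets its log2 fold change was -1.04 (adjusted p = 2.06e-04, edgeR), so that its direction turned. FBXO11, a ubiquitin ligase subunit on the opposite strand that overlaps the MSH6 locus, had 43.8 to 92.6 counts in parental libraries and 755.8 to 1109.7 in those of p85β KR-AA cells. The library kit does not mark strand, and reads from the shared stretch cannot be told apart.

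MSH3 (ENSG00000113318, plus strand of chromosome 5, 79950471 to 80172634) forms MutSβ, which binds loops of several bases. Its counts were 42.7, 65.5 and 52.3 in parental libraries and 437.9, 345.3 and 248.4 in those of p85β KR-AA cells. This was 3.60 ± 1.00 CPM and 11.0 ± 1.70 CPM (SD, n = 3 each), without overlap. MSH3 had a log2 fold change of 1.62 (SE 0.24, adjusted p = 3.79e-05, edgeR) and -0.32 with length and GC offsets (adjusted p = 0.144). The ratio of MSH6 to MSH3 sets the transcripts of the 2 MutS subunits beside each other, not the protein complexes. A ratio within a library does not depend on library scaling. Per kilobase of transcript, MSH6 was 1.73 to 2.67 times MSH3 in parental libraries and 1.94 to 2.27 times in those of p85β KR-AA cells. The mean log2 ratio was 1.04 in each condition, with an SD of 0.33 in parental libraries and 0.12 in those of p85β KR-AA cells (n = 3 each). The difference of 0.006 gave p = 1.0 in a two-sided exact permutation test, in which 3 against 3 libraries cannot go below 0.1. The lengths of MSH6 and MSH3 differ (7476 and 4443 bases), and a ratio within a library does not remove a trend of fold change with length. With the length offset the log2 fold changes were -0.37 for MSH6 and 0.55 for MSH3, and with both offsets -1.04 and -0.32.

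PMS2 (ENSG00000122512, minus strand of chromosome 7, 6010556 to 6048761) is the endonuclease subunit of MutLα. Its counts were 105.8, 94.0 and 196.7 in parental libraries and 769.9, 636.4 and 600.0 in those of p85β KR-AA cells. The level was 8.68 ± 3.01 CPM and 21.7 ± 0.59 CPM (SD, n = 3 each), with parental replicate 3 the highest of its condition. This was a log2 fold change of 1.31 (SE 0.22, adjusted p = 1.12e-04, edgeR) and -0.26 with length and GC offsets (adjusted p = 0.125). PMS2 counts are uncertain, because its pseudogenes share long near-identical stretches with it. The table holds 10 such copies, of which 5 could be tested. Among these, PMS2CL rose (log2 fold change 0.57, adjusted p = 0.00738) and PMS2P1 fell (-1.39, adjusted p = 6.92e-06). PMS2 and PMS2CL summed to 17.2, 18.1 and 25.2 CPM in parental libraries and 38.6, 38.0 and 39.6 CPM in those of p85β KR-AA cells. With all copies added, the sums were 41.0, 42.3 and 46.4 against 51.5, 51.4 and 52.2 CPM, a log2 ratio of the means of 0.26. The rise was thus smaller the more of the copies were counted with it.

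PMS1 (ENSG00000064933, plus strand of chromosome 2, 190648811 to 190742355) is a MutL subunit without a settled part in repair. It had 51.0, 47.0 and 57.0 counts in parental libraries and 268.1, 231.1 and 112.0 in those of p85β KR-AA cells. The level was 3.44 ± 0.07 CPM and 6.48 ± 2.11 CPM (SD, n = 3 each). The lowest p85β KR-AA library, replicate 3, had 4.08 CPM, just above the highest parental value of 3.52 CPM. Its log2 fold change of 0.91 (SE 0.27, adjusted p = 0.00684, edgeR) was the smallest of the genes that rose. It did not pass with DESeq2 (0.79, adjusted p = 0.0118) or without any 1 of the libraries other than p85β KR-AA replicate 3 (adjusted p from 0.02 to 0.0422, with log2 fold changes from 0.74 to 0.89). With length and GC offsets it was -0.69 (adjusted p = 0.0103).

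MLH3 (ENSG00000119684, minus strand of chromosome 14, 75480472 to 75518235) forms MutLγ, an endonuclease known above all from meiotic crossing over. It had the largest rise of the members. Its counts of 15, 14 and 33 in parental libraries were the lowest of all members, and 395, 352 and 196 were found in the p85β KR-AA libraries. The level was 1.35 ± 0.59 CPM and 10.1 ± 2.63 CPM (SD, n = 3 each), without overlap. MLH3 had a log2 fold change of 2.88 (SE 0.32, adjusted p = 2.69e-06, edgeR), and it was 0.88 with length and GC offsets (adjusted p = 0.00633). MSH3 is nearly the same in length (4443 against 4491 bases) and GC content (41.6% against 40.8%), and this pair was picked after the values were seen. The ratio of MLH3 to MSH3 was 0.217 to 0.628 in parental libraries and 0.781 to 1.01 in those of p85β KR-AA cells, a difference of 1.29 in mean log2 ratio (exact permutation test, two-sided, p = 0.1, the smallest possible).

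PMS2, PMS1 and MLH3 are the subunits by which the MutL heterodimers differ, and of the 2 ratios chosen PMS2 to MLH3 was without overlap between the conditions. Per kilobase, PMS2 was 5.19 to 6.05 times MLH3 in parental libraries and 1.59 to 2.69 times MLH3 in those of p85β KR-AA cells. The mean log2 ratio differed by -1.54 (2.50 ± 0.11 against 0.96 ± 0.41, SD, n = 3 each, exact permutation test p = 0.1). PMS2 was 1.26 to 2.17 times PMS1 in parental libraries and 1.74 to 3.38 times in those of p85β KR-AA cells. These ranges overlap, and the difference of 0.53 was within the spread (exact permutation test p = 0.3). The uncertainty of PMS2 counts applies to both ratios. The GC content of PMS2 is 6.4 percentage points above that of MLH3 and 7.3 above that of PMS1. The part of GC content in these ratios was not tested.

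EXO1 (ENSG00000174371, plus strand of chromosome 1, 242011269 to 242058450) digests the mispaired strand from a nick. Its counts were 187, 220 and 314 in parental libraries and 1767, 1408 and 1073 in those of p85β KR-AA cells. The level rose from 15.9 ± 3.48 CPM to 45.4 ± 5.51 CPM (SD, n = 3 each), and the lowest p85β KR-AA library, with 39.1 CPM, was far above the highest parental library, with 19.4 CPM. The log2 fold change was 1.51 (SE 0.18, adjusted p = 6.96e-06, edgeR) and -0.002 with length and GC offsets (adjusted p = 0.987). With an offset for length alone it was 1.08 (adjusted p = 3.56e-05). EXO1 and PMS1 are alike in length (3192 and 3225 bases) and GC content (41.3% and 39.9%), a pair also picked after the values were seen. EXO1 was 3.68 to 5.53 times PMS1 in parental libraries and 6.14 to 9.64 times in those of p85β KR-AA cells (exact permutation test p = 0.1).

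POLD1 (ENSG00000062822, plus strand of chromosome 19, 50887461 to 50921275) was the member with the highest level per length in both conditions and the one that fell. Its counts were 7421.8, 6551.2 and 5811.1 in parental libraries and 2486.0, 1930.0 and 2190.2 in those of p85β KR-AA cells. The level went from 442.8 ± 73.5 CPM to 71.6 ± 7.11 CPM (SD, n = 3 each). In p85β KR-AA cells POLE had a like mean of 71.2 CPM. The log2 fold change of POLD1 was -2.63 (SE 0.16, adjusted p = 1.29e-08, edgeR). It kept this direction and passed the test in all fits made, at -1.70 with library totals alone, -1.55 with length and GC offsets and -3.24 with the length offset. POLD1 has the highest GC content of the members, 64.9%. Tested genes with 60% to 65% GC had a median log2 fold change of -1.36, with the middle 50% between -2.20 and -0.39. POLD1 lay below that range.

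POLE (ENSG00000177084, minus strand of chromosome 12, 133200339 to 133263962) had counts of 1204, 657 and 1028 in parental libraries and 2576, 1909 and 2109 in those of p85β KR-AA cells. The level was 63.7 ± 16.1 CPM and 71.2 ± 5.25 CPM (SD, n = 3 each). Parental replicate 1, with 79.97 CPM, lay above all p85β KR-AA libraries and the other parental libraries lay below them. The log2 fold change of 0.16 (SE 0.17, adjusted p = 0.406, edgeR) depended on the fit, with 1.08 from library totals alone (adjusted p = 4.47e-04), -0.51 with length and GC offsets (adjusted p = 2.33e-04) and -1.83 with the length offset. POLE has 7840 bases and 56.4% GC. The ratio to POLD1 differed more between the conditions than POLE itself. Per kilobase, POLE was 0.045 to 0.0793 times POLD1 in parental libraries and 0.432 to 0.464 times POLD1 in those of p85β KR-AA cells. The mean log2 ratio was -3.97 ± 0.44 and -1.16 ± 0.05 (SD, n = 3 each), a difference of 2.81 (exact permutation test p = 0.1, the smallest possible). The GC contents of this pair differ by 8.5 percentage points and the longer gene is POLE. With the length offset the log2 fold changes were -1.83 for POLE and -3.24 for POLD1, and with both offsets -0.51 and -1.55. The 2 genes were thus closer to each other with offsets.

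Levels of different genes can be compared only per length. In TPM (counts divided by the deposited gene length and scaled to the same total in each library), POLD1 had a mean of 125 in parental libraries, and POLE (8.20) and EXO1 (5.002) followed, with ranges that overlapped each other. PMS2 (1.73), MSH6 (1.68), PMS1 (1.07) and MSH3 (0.797) came next, each with a range that overlapped the next in order, and MLH3 (0.307) was lowest, apart from MSH3. In p85β KR-AA libraries the order was POLD1 (52.8), EXO1 (37.01), POLE (23.5), MSH6 (13.2) and PMS2 (11.0), none of these overlapping its neighbor. MSH3 (6.44), MLH3 (5.84) and PMS1 (5.24) had overlapping ranges. The members thus spanned a wider range of TPM in parental than in the p85β KR-AA libraries, from 0.201 to 143 against 3.20 to 57.4. TPM has no TMM factor, so that its differences between the conditions are not those in CPM, and they were not tested. POLE, which did not pass the test, had 5.41 to 10.4 TPM in parental libraries and 22.7 to 24.8 TPM in those of p85β KR-AA cells.

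Several members start head to head with another gene, and without offsets 2 of the 3 partners described fell where the member did not. AIMP2, a scaffold of the tRNA synthetase complex, starts 125 bases from PMS2 in the annotation. It fell from between 51.3 and 55.9 CPM to 19.7 CPM or just above in each p85β KR-AA library (log2 fold change -1.45, adjusted p = 5.87e-07, edgeR), where PMS2 rose. PXMP2, a peroxisomal membrane channel, starts 211 bases from POLE. It fell from 68.0, 108.4 and 68.5 CPM to 5.46, 5.54 and 6.27 CPM (log2 fold change -3.83, adjusted p = 8.29e-09, edgeR), and the ratio of POLE to PXMP2 differed by 3.98 on the log2 scale. The GC contents of POLE and PXMP2 differ by 0.8 percentage points, but their lengths are 7840 and 762 bases. ORMDL1, a regulator of sphingolipid synthesis that starts 279 bases from PMS1, rose with it (log2 fold change 0.76, adjusted p = 0.00222, edgeR), and the ratio of PMS1 to ORMDL1 differed by 0.09 (exact permutation test p = 0.7). ORMDL1 overlaps PMS1 on the other strand, and reads of the shared stretch cannot be told apart. The lengths of PMS2 and AIMP2 are 5093 and 1198 bases. With length and GC offsets ORMDL1 was lower (-0.51, adjusted p = 0.00701), and AIMP2 (-0.86) and PXMP2 (-2.09) stayed lower. In that fit POLE was lower as well (-0.51, adjusted p = 2.33e-04, edgeR), and PMS2 was at -0.26 (adjusted p = 0.125). Neither member thus rose where its partner fell. These ratios were chosen after the values were seen, and 9 ratios were computed in all, of which none could pass 0.05 by the permutation test.

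The 35 other genes of the pathway lists, of which 34 could be tested, counted 10 higher, 16 lower and 8 not past the test, where 41.6% of all tested genes were higher and 32.7% lower. Their median log2 fold change was -0.40. With library totals alone, 17 of these genes were higher and 10 lower, beside 7 and 1 of the members. Of all 16059 tested genes, 9292 were higher and 2879 lower in that fit. With length and GC offsets, 3 of the pathway genes were higher and 22 lower, beside 1 and 3 of the members. Of all genes in that fit, 29.1% were higher and 34.7% lower. The difference between the members and the other pathway genes was not tested. Of the genes named below as having risen, SETD2, MCM8 and MSH5 alone passed as higher with length and GC offsets. Of the accessory subunits of polymerases δ and ε, 3 of 6 fell and none rose. POLD2, the small δ subunit that binds POLD1, fell from 1124 ± 156 CPM to 145.3 ± 14.4 CPM (SD, n = 3 each, log2 fold change -2.95, adjusted p = 5.96e-09, edgeR). POLE4, a histone-fold subunit of ε, fell from 161.0 ± 34.5 to 17.85 ± 1.243 CPM (-3.17, adjusted p = 7.61e-09). POLE4 has a GC content of 47.3%, and its log2 fold change was -3.22 with length and GC offsets. POLD4 fell by 0.98 on the log2 scale, but was 0.28 with these offsets, while POLD3 (0.45), POLE2 (0.83) and POLE3 (-0.08) did not pass the test. With these offsets POLD3 (-1.195, adjusted p = 8.63e-05, edgeR) and POLE3 (-0.80, adjusted p = 2.73e-05, edgeR) were lower. POLE2 was -0.03 (adjusted p = 0.926, edgeR) in that fit. The catalytic and the small subunit of polymerase δ thus both fell, with 1.39 as the size of the POLD2 decrease when the offsets were used.

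The clamp PCNA, which recruits the polymerases and the MutS proteins to DNA, fell from 178.2 ± 27.6 to 108.8 ± 6.68 CPM (SD, n = 3 each, log2 fold change -0.71, adjusted p = 4.29e-04, edgeR), but was 0.21 with library totals alone. With length and GC offsets PCNA was -1.11 (adjusted p = 9.79e-05, edgeR). Of the clamp loader genes, RFC1 (1.90) and RFC3 (1.21) rose, RFC2 fell (-1.97), and RFC4 (0.35) and RFC5 (0.07) did not pass. RFC1 was -0.17 (adjusted p = 0.392) and RFC3 -0.01 (adjusted p = 0.939) with length and GC offsets, and RFC2 stayed lower (-1.46). Of 5 genes for single-strand binding and ligation 4 fell, where 32.7% of all tested genes did, with LIG1, the replicative ligase, at -1.60, RPA2 at -1.68, RPA1 at -0.60 and HMGB1, a DNA-bending protein, at -0.61 on the log2 scale. RPA3 (-0.56) did not pass the test. With library totals alone, RPA1 and HMGB1 turned positive (0.32 and 0.33) without passing. In that fit 2 of the 5 genes were lower, where 2879 of all 16059 tested genes were. With length and GC offsets all 5 were lower, where 34.7% of all genes in that fit were. RPA3 was -1.23 there (adjusted p = 2.07e-05, edgeR).

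Among the genes of polymerase α-primase, which lays down primers, the catalytic POLA1 rose 6.11-fold from 2.54 ± 0.82 CPM and POLA2 fell 3.10-fold from 79.6 ± 5.71 CPM (SD, n = 3 each), and PRIM1 and PRIM2 did not pass. The log2 fold change of POLA1 was 0.47 with length and GC offsets (adjusted p = 0.0289) rather than 2.61, and POLA2 stayed lower (-1.72). Of the nucleases, FEN1, which trims Okazaki flaps, fell (log2 fold change -1.58) and FAN1 (1.36) and DNA2 (2.37) rose. FAN1 was -0.28 (adjusted p = 0.125) and DNA2 0.41 (adjusted p = 0.145) with length and GC offsets. SETD2 writes H3K36me3, the histone mark that MSH6 binds, and its log2 fold change of 3.61 (SE 0.21, adjusted p = 1.19e-08, edgeR) was the largest in the lists, from 1.88 ± 0.19 to 23.1 ± 3.08 CPM (SD, n = 3 each). It was 1.01 with length and GC offsets (adjusted p = 1.07e-04). The helicase genes MCM8 (2.70) and MCM9 (2.54) rose as well. With the offsets MCM8 was 1.03 (adjusted p = 0.00174) and MCM9 0.69 (adjusted p = 0.101). Of the meiotic MutS homologues, MSH5 rose (1.60), and MSH4 was too low to test, with a mean of 0.271 CPM or less in each condition.

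The MCM2-7 helicase unwinds DNA ahead of the polymerases, and its genes are expressed most in cycling cells. MCM5 (-2.63), MCM2 (-2.38) and MCM7 (-2.34) fell over 3-fold, MCM3 (-0.66) and MCM4 (-0.42) fell less, and MCM6 (0.79) rose. With library totals alone MCM3 (0.25) did not pass and MCM4 passed as higher (0.50). With length and GC offsets all 6 were lower, where 34.7% of all genes in that fit were. Their GC contents ran from 43.2% for MCM6 to 57.4% for MCM2 and MCM7, and the part of GC content in these differences was not tested beyond the offsets.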

How the data were processed

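RNA-seq of 3 parental and 3 p85β KR-AA libraries of DLD1 cells was analysed. The authors deposited estimated counts (expected counts) per Ensembl gene, not normalized, with a gene length. The submitters' processing notes name HISAT2 2.1.0, RSEM 1.3.1, DESeq2 1.24.0 and the build hg18, and the paper names trimming with SeqPrep and Sickle. The annotation and strand setting of the counting are not given in the sources used here.

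Counts were rounded, filtered with filterByExpr (minimum count 10, minimum total 15), scaled with TMM and compared with the quasi-likelihood F test of edgeR 4.0.16 in R 4.3.3, with Benjamini-Hochberg adjustment over 16059 genes. The standard error (SE) is the log2 fold change over the square root of F. Offsets were additive robust splines with 5 degrees of freedom per library (MASS), which remove the smooth trend with length or GC content, biological or not. GC content was that of the GENCODE transcript nearest in length to the deposited gene length. Symbols and GRCh37 positions came from GENCODE release 44 lifted to that build, and promoter windows from RefSeq on GRCh38.p14, where all 8 members matched. Ratios had 0.5 counts added to each gene. The code was tested on simulated counts with known changes.

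All 8 members are described, with all genes of the pathway lists, overlapping genes, divergent genes that start within 1000 bases, and copies of PMS2. For MSH6, the 3 protein-coding genes with the most similar profile are named. The members and lists were chosen with earlier results of these data known. Alternatives were DESeq2 1.42.0, RLE scaling, library totals, 2 other filters, a replicate block, omission of each library, the offsets, and other thresholds. Figures were drawn with matplotlib 3.10.9. Some genes of these groups are not reported here.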

Additional observations from a re-analysis of the deposited data

How the results depend on the processing

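The number of members that rose was 6 and of those that fell 1. They were 1 and 3 with length and GC offsets, 2 and 2 with the length offset, and 3 and 1 at a fold change of at least 3. Of the other pathway genes 10 rose and 16 fell. These were 17 and 10 with library totals alone, 3 rose with length and GC offsets, and 9 fell at a fold change of at least 3. All tested genes shifted too, from 41.6% higher and 32.7% lower. With library totals alone 9292 of 16059 were higher and 2879 lower, and with the length offset 5235 and 5868. With length and GC offsets 29.1% were higher and 34.7% lower, and at a fold change of at least 3 these were 28.6% and 17.6%. Leaving out 1 library in turn gave 5 to 6 members that rose and 1 that fell, and 10 to 11 and 14 to 18 other pathway genes. With length and GC offsets the log2 fold changes of MSH6 (-1.04) and POLE (-0.51) turned and passed the test as lower. Those of MSH3 (-0.32), PMS2 (-0.26) and PMS1 (-0.69) turned without passing, and that of EXO1 was near 0 at -0.002. With the length offset MSH6 was -0.37 and POLE -1.83, and POLE ranged from -0.041 without parental replicate 2 to 0.345 without parental replicate 1. The offsets remove the smooth trend with these properties, so that a difference of these cells that follows length or GC content goes with it. The differences in log2 ratio moved by less than 1 SD with 1 count added. They ranged from -0.12 to 0.20 for MSH6 to MSH3, 0.22 to 0.78 for PMS2 to PMS1, -1.77 to -1.39 for PMS2 to MLH3 and 2.56 to 2.96 for POLE to POLD1 with 1 library left out.

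Deviations of libraries with the same replicate number were only weakly correlated (-0.136, 0.119 and -0.0447 across genes). With so few libraries, such values cannot exclude a shared culture or batch. The library labels do not say whether equal numbers are pairs. With the replicate block and robust moderation, which was chosen after seeing the data, PMS1 was 0.86 and MSH6 1.62 on the log2 scale, and no call of a member changed. MLH3, with 14 to 33 counts in parental libraries, is the member whose fold change counting error limits most.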

Other observations

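The 3 protein-coding genes whose log2 CPM followed that of MSH6 most closely over the 6 libraries were GOLM1 (Pearson r = 0.9997), RBM12 (0.9995) and UNC50 (0.9995). With a large difference between the conditions such values are common, as 2353 of 13755 protein-coding genes had r over 0.95 with MSH6. GOLM1, a Golgi membrane protein, has 47.7% GC and RBM12, an RNA-binding protein, 40.5%, against 40.2% for MSH6.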
